A study of Mus musculus with 6 samples.

Results

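The A-type potassium channel complex genes studied here were 8 genes of the Kv4 channel complex of brain: the pore subunit genes Kcnd2 and Kcnd3, the KChIP genes Kcnip1, Kcnip2, Kcnip3 and Kcnip4, and the dipeptidyl peptidase-like genes Dpp6 and Dpp10. The other Kv4 pore gene, Kcnd1, was not among them and was counted with the other potassium channel genes. The 8 were chosen by name, by their place in this channel complex, from 37273 annotated genes, and reads were counted over their gene bodies and promoters. Acetylation of histone H4 at lysine 5 (H4K5ac) was profiled by ChIP-Seq in whole hippocampus of C57/BL6 mice aged 6 months. Fear-conditioned mice (FC) received foot shocks in a context on consecutive days and were then tested for memory. Control mice (CON) were exposed to the same context with no shock. Each group had 1 H4K5ac-ChIP, 1 mock IgG-IP and 1 input library, so that no difference between groups has a replicate check and no p-value is given. The 95% intervals cover counting error only and compare libraries, not conditions. In whole tissue, fewer cells of a type and less acetylation per cell cannot be told apart.

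A-type current is a fast, transient potassium current of dendrites and cell bodies. Kv4 subunits form its pore. KChIPs, small calcium-binding proteins of the neuronal calcium sensor family, bind the cytoplasmic N-terminus of the pore subunit and set its surface level and inactivation. DPP6 and DPP10 are single-pass membrane proteins, related to dipeptidyl peptidases but without enzyme activity, that speed the channel's kinetics. In pyramidal neurons of CA1 the current dampens back-propagating action potentials in dendrites. H4K5ac is a mark of open chromatin found around transcription start sites (TSS) and across transcribed genes.

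The libraries held between 14549689 reads (FC IgG-IP) and 45673239 reads (FC input), with 31605738 in FC H4K5ac-ChIP and 35962226 in CON H4K5ac-ChIP. As a check of the tissue, gene bodies of 6 hippocampal excitatory neuron markers had a median log2 H4K5ac-ChIP to IgG-IP ratio of 1.14 for FC and 0.97 for CON, among them Camk2a at 1.31 and 1.03. Against this, 5 cerebellar markers had medians of -0.24 and -0.37, and 8 markers of other organs had medians of 0.04 and 0.22. The ranges overlapped from both sides. Neurod6 was at -0.81 for FC and -0.71 for CON, while Vil1, a marker of other organs, was at 1.63 for FC, above Camk2a. In CON, Apoa1 of the other organs was at 1.13 and the cerebellar marker Cbln1 at 1.16.

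Sequences of 300 bases at annotated starts, read from mm9 from 250 bases upstream to 50 bases downstream on the gene's strand, are given for the starts on which the results turn, with each CG dinucleotide in capitals. Kcnd2, at chr6:21165253-21165552 on the plus strand, is the only start of the main pore gene of hippocampal pyramidal cells.
Kcnd2: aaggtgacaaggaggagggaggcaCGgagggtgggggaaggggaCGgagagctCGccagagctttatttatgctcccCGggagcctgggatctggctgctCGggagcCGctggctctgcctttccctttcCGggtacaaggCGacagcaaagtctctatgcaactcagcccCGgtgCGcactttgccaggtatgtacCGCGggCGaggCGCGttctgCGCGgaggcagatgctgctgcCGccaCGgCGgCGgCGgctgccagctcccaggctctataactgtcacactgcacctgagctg
Kcnip3, at chr2:127347781-127348080 on the minus strand, is the start with the most H4K5ac-ChIP reads.
Kcnip3: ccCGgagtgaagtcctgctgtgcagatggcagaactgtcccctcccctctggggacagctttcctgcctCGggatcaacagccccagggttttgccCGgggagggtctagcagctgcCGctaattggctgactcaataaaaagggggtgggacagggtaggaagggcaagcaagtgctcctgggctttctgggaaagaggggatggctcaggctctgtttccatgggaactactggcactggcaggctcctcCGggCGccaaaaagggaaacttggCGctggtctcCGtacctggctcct
Dpp6 is shown at its first start, at chr5:27143493-27143792, and at the internal start of the transcript Dpp6-002, at chr5:27375489-27375788, both on the plus strand, because the density along the gene changed between them.
Dpp6 first start: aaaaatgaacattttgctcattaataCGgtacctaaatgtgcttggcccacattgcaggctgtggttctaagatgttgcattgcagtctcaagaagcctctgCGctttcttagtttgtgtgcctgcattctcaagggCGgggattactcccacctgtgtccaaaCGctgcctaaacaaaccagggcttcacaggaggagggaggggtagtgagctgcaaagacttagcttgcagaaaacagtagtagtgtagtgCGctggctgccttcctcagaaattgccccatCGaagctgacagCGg
Dpp6 internal start: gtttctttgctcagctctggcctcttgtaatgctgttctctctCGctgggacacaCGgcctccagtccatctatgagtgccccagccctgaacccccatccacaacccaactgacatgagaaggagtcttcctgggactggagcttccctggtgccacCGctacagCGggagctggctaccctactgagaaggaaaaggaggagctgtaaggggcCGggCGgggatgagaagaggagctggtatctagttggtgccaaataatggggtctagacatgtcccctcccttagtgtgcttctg

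These windows held 22 CG dinucleotides at Kcnd2, 8 at Kcnip3, 7 at the first Dpp6 start and 6 at the internal one, where the median over 37273 gene starts was 6 and the upper quartile 18. Over all 24 separate starts of the 8 genes, joined where they lay within 1 kb, the count ranged from 1 at the last Dpp6 start to 36 at the first Kcnd3 start. The start with the most acetylation, Kcnip3, was thus not among the starts richest in CG. The GC box letters GGGCGG, on either strand, were present at 9 of 24 starts and in 30.4% of all gene starts. The TATA letters TATAAA were present at 1 of 24 starts, the last of Kcnip4, and in 16.2% of all. The cAMP response element letters TGACGTCA (1.61% of all) and the E box letters CACGTG (6.21% of all) were not in any of these windows.

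Gene body densities are given as RPKM (reads per kilobase of gene and per 1000000 reads of the library), with reads counted from the first to the last annotated base. By H4K5ac-ChIP density, Kcnip3 and Kcnd3 were the highest of the 8 genes, and Kcnip2 and Dpp6 followed. Kcnip1, Kcnip4 and Dpp10 lay at or below the mock IP. The log2 ratio over input in FC was instead highest at Kcnd2, at 0.79. At least 2-fold more H4K5ac-ChIP than IgG-IP was reached by 1 of 8 genes in FC, Kcnip3, and by 0 of 8 in CON. Of all genes with at least 20 reads in both libraries together, 33.6% reached it in FC and 25.5% in CON. The median log2 ratio of the 8 genes was 0.29 for FC and 0.40 for CON, against 0.69 and 0.59 over all genes, and 0.50 and 0.49 over genes of at least 100 kb.

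**Figure D1:**
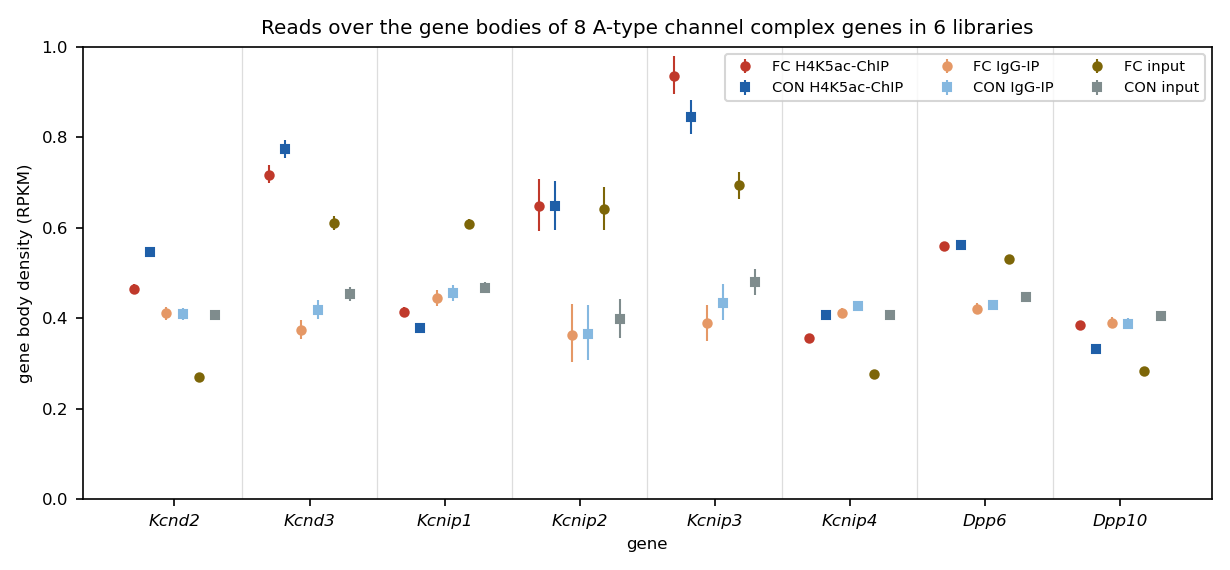
Gene body density (RPKM) of each of the 8 genes in the 6 libraries, with 95% Poisson intervals as bars (counting error only) and FC as circles and CON as squares. Both H4K5ac-ChIP points stand above both IgG-IP points at Kcnd2, Kcnd3, Kcnip2, Kcnip3 and Dpp6, and the FC input is below the CON input at Kcnd2, Kcnip4 and Dpp10 and above it at the other 5 genes.

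Among the pore genes, Kcnd2 (chr6:21165503-21679805, plus strand, 36.96% GC) carried 7557 reads in the FC H4K5ac-ChIP library and 10118 in that of CON. Its density was 0.465 RPKM in FC and 0.547 in CON, against 0.411 and 0.409 in IgG-IP and 0.270 and 0.407 in input. The H4K5ac-ChIP libraries were thus the highest of the 6, and CON lay above FC. The log2 ratio over IgG-IP was 0.18 (0.12 to 0.24) for FC and 0.42 (0.36 to 0.48) for CON. Kcnd3 (chr3:105255248-105476920, plus strand, 46.7% GC) encodes a second pore subunit, which is found in hippocampal interneurons among other cells. Its density was 0.718 RPKM in FC and 0.774 in CON, against 0.374 and 0.418 in IgG-IP and 0.610 and 0.454 in input. The ratio over IgG-IP, 0.94 (0.85 to 1.03) and 0.89 (0.81 to 0.97), was above that of Kcnd2 in both groups.

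Among the KChIP genes, Kcnip3 (chr2:127282234-127347830, minus strand, 50.6% GC) encodes KChIP3, also known as calsenilin and as the transcriptional repressor DREAM. Its density was 0.937 RPKM in FC and 0.845 in CON, against 0.389 and 0.434 in IgG-IP and 0.694 and 0.480 in input. These were the highest H4K5ac-ChIP densities of the 8 genes, with log2 ratios over IgG-IP of 1.27 (1.11 to 1.43) and 0.96 (0.81 to 1.11). Kcnip2 (chr19:45866329-45890551, minus strand, 50.4% GC), the shortest of the 8 at 24.2 kb, had 0.648 RPKM in FC and 0.649 in CON, against 0.363 and 0.365 in IgG-IP and 0.642 and 0.398 in input. The FC ratio over input was 0.01 (-0.15 to 0.18), while that over IgG-IP was 0.83 (0.55 to 1.13), so the standing of Kcnip2 in FC rested on the choice of control.

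Kcnip1 (chr11:33529339-33893152, minus strand, 46.2% GC) had 0.414 RPKM in FC and 0.378 in CON, against 0.444 and 0.456 in IgG-IP and 0.608 and 0.468 in input. H4K5ac-ChIP was the lowest of the antibodies in each group. Kcnip4 (chr5:48780743-49915940, minus strand, 37.8% GC), the longest of the 8 genes at 1135 kb, had 0.357 RPKM in FC and 0.407 in CON, against 0.412 and 0.428 in IgG-IP and 0.277 and 0.407 in input. Its ratio over IgG-IP was -0.21 (-0.25 to -0.17) for FC and -0.07 (-0.11 to -0.03) for CON. The KChIP genes thus spread over 1.48 on the log2 scale in FC and 1.23 in CON between the highest and the lowest member.

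Of the DPP genes, Dpp6 (chr5:27143743-28054045, plus strand, 43.9% GC) had 0.561 RPKM in FC and 0.563 in CON, against 0.422 and 0.430 in IgG-IP and 0.532 and 0.447 in input. Its ratio over IgG-IP was 0.41 (0.37 to 0.46) for FC and 0.39 (0.35 to 0.43) for CON. Dpp10 (chr1:125228716-125942136, minus strand, 37.8% GC) had 0.386 RPKM in FC and 0.331 in CON, against 0.389 and 0.388 in IgG-IP and 0.284 and 0.405 in input. Of its FC reads, 23.1% came from 1 position, and without them the FC density was 0.297 RPKM, the lowest of the 8 genes in FC.

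The 3 AT-rich genes, Kcnd2, Kcnip4 and Dpp10, stood higher in FC when input was the control. The log2 ratio over input in FC was 0.79 (0.74 to 0.83) at Kcnd2, 0.37 at Kcnip4 and 0.44 at Dpp10, against 0.43, 0.0022 and -0.29 in CON. Without the reads at 1 position Dpp10 in FC was at 0.07 (0.02 to 0.11). With input as the control, 0 of 8 genes reached 2-fold in either group, where 5.08% of all genes did in FC and 15.3% in CON.

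Among 16 other voltage-gated potassium channel genes, Kcnd1 included, 11 reached 2-fold over IgG-IP in FC and 10 in CON. Of all genes, 33.6% and 25.5% did. The median log2 ratio of the 16 genes was 1.10 and 1.06. Most of the 16 were shorter than 100 kb, whereas all members but Kcnip2 and Kcnip3 were longer. The part of gene length in this difference was not tested. The highest of the 16 was Kcna2 (5.31 kb), a Kv1 subunit of axons, at 2.26 for FC and 1.81 for CON. The lowest was Kcnc2 (195 kb), a Kv3 subunit of fast-spiking neurons, at -0.73 and -0.51. Of 6 dipeptidyl peptidase relatives, 3 reached it in FC and 0 in CON (medians 0.95 and 0.72), with the peptidase gene Dpp7 the highest at 1.73 and 0.99. Of 7 neuronal calcium sensor relatives of the KChIPs, 1 reached it in each group, Ncs1, at 1.77 and 1.48. The genes nearest to Kcnd2 over the 6 log2 gene body densities, among 2388 protein-coding genes of at least 100 kb, were Xkr4, Cdh8 and Ccdc85a, at Euclidean distances of 0.121, 0.129 and 0.142.

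H4K5ac-ChIP density over the gene body was also compared with 50 kb of flank on either side, with the 5-kb promoter left out. Flank values of the control libraries are not given, so whether IgG-IP or input also stood above the flanks was not tested. Both groups had 6 of 8 genes at least 1.2-fold above their flanks, where 40.2% of all genes were in FC and 39.1% in CON. Dpp10, although at or below IgG-IP, stood above its flanks by 1.21 on the log2 scale in FC and 0.85 in CON, and its flanks were the least dense of the 8, at 0.167 and 0.184 RPKM. Without the reads at 1 position its FC value was 0.83. Kcnd2 stood above its flanks by 0.70 and 0.97. With the bodies of other genes left out of the flanks, Dpp6 (1.04) and Kcnd2 (1.01) were the highest in CON. In FC the highest were then Dpp10 (1.21, with the reads at 1 position) and Dpp6 (0.92), and Kcnip2 in CON moved to 0.26. With full flanks, Kcnd3 (-0.02 and 0.17) and Kcnip2 (-0.22 and -0.06) did not pass, and Kcnip4 in FC passed narrowly, at 1.201-fold.

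Along the genes, Dpp6 showed the clearest pattern. Its annotation has 5 separate starts, at 0, 87.5, 232, 445 and 717 kb from the first. Between the first and the second start the H4K5ac-ChIP density was 0.237 RPKM in FC and 0.217 in CON, against 0.467 and 0.421 in IgG-IP. This stretch lay below the mock IP in both groups, by log2 ratios of -0.98 (-1.14 to -0.81) and -0.95 (-1.11 to -0.79). From the second to the third start the ratios were -0.21 (-0.32 to -0.09) and -0.49 (-0.60 to -0.37), and from the third to the fourth they were 0.52 (0.44 to 0.61) and 0.60 (0.52 to 0.68). They were 0.51 and 0.56 over the next stretch and 0.91 and 0.73 over the last. Acetylation thus lay below the mock IP in the stretches before the start of Dpp6-002 and above it in those after.

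In the 50 kb before that internal start the density was 0.380 RPKM in FC and 0.335 in CON, and in the 50 kb after it 0.695 and 0.771. The log2 step was 0.87 (0.73 to 1.02) for FC and 1.203 (1.06 to 1.34) for CON. The same step was -0.12 (-0.35 to 0.11) and -0.07 (-0.28 to 0.15) in IgG-IP, and -0.02 (-0.13 to 0.10) and -0.22 (-0.36 to -0.08) in input, so it was not found in the control libraries. At the other internal starts of Dpp6 the H4K5ac-ChIP step was 0.59 and 0.43 at the second, 0.05 and 0.08 at the fourth and 0.64 and 0.46 at the fifth, where IgG-IP also stepped up, by 0.44 and 0.33. Input stepped up at the fifth as well, by 0.36 in FC and 0.18 in CON. At the second, input stepped by 0.26 (0.14 to 0.38) in FC and -0.03 in CON. The 1386 CON reads after the start of Dpp6-002 include a stack of 159 reads described with the windows, which raises the CON step there. The steps of FC and CON are therefore not compared. From the first 20% of the gene to the last 20%, the log2 ratio over IgG-IP rose by 1.46 in FC and 1.44 in CON, a rise of at least 2-fold. Among genes of at least 100 kb, 2.67% rose as much in FC and 2.43% in CON. None of the other 5 members of that length did so, and their differences ran from -0.49 to -0.02 in FC and from -0.31 to -0.01 in CON.

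**Figure D2:**
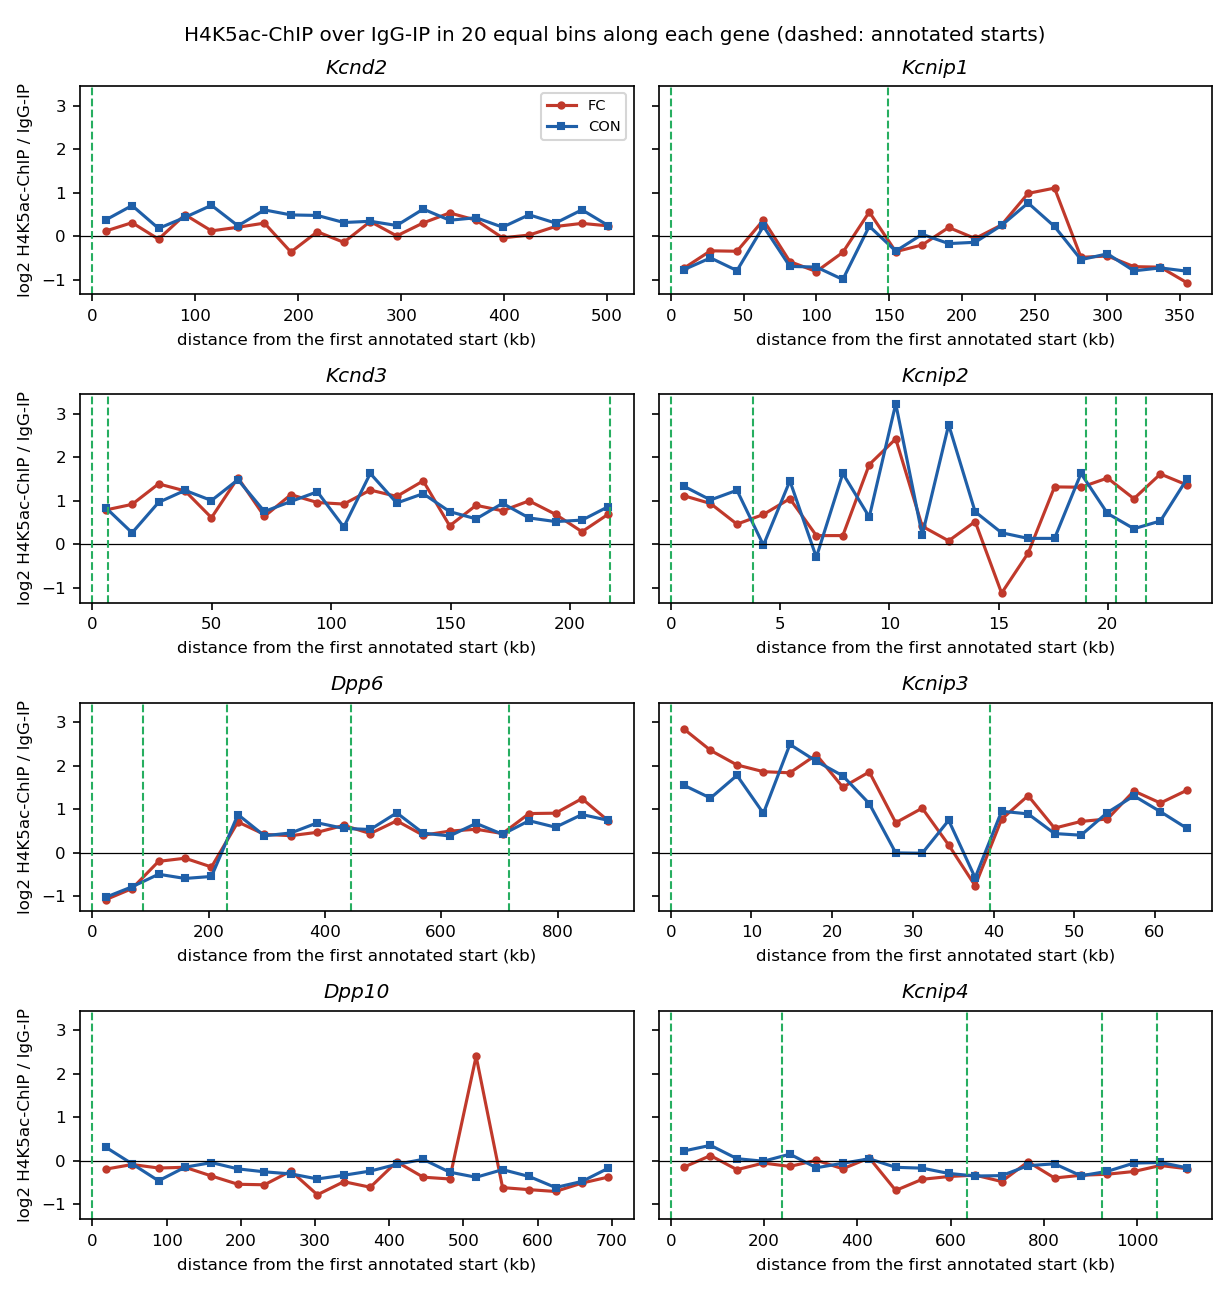
Log2 H4K5ac-ChIP to IgG-IP ratio in 20 equal bins along each gene, against the distance from the first annotated start in kb, with FC as red circles, CON as blue squares and annotated starts as dashed lines. In Dpp6 both groups cross from below 0 to above 0 between the bins centred at 205 and 250.3 kb, in Kcnip3 both are high over the first part of the gene, and in Dpp10 the FC point at 2.40 is the bin that holds 2006 reads at 1 position.

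Kcnip3 was acetylated most over its 5′ part. From its first start to its internal start at 39.6 kb the density was 1.08 RPKM in FC and 0.941 in CON, and beyond it 0.720 and 0.699. In the first bin of 20 the log2 ratio over IgG-IP was 2.84 for FC and 1.55 for CON, and it was lowest in the twelfth bin, at -0.76 and -0.58. A position in that bin, at 38.4 kb from the start, was the most repeated of the gene in 5 of 6 libraries, all but FC H4K5ac-ChIP, with 6 to 19 reads of a median mapping score of 7. Counting 1 read per position and strand, the twelfth bin was at 0.36 for FC and 0.51 for CON.

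Kcnip1 had a raised stretch well inside the gene. In the 14th of 20 bins, near 245 kb from the first start, the density was 0.866 RPKM in FC and 0.752 in CON, with log2 ratios over IgG-IP of 0.98 and 0.76. Across the 20 bins, 6 were above IgG-IP in each group, and the ratio was lowest in FC in the last bin, at -1.07. Kcnip1 overlaps 4 other annotated genes, among them Kcnmb1, a calcium-activated potassium channel subunit gene, at 19.5 to 30.1 kb. Reads there belong to both genes, but the raised stretch lies outside that overlap.

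Against the mock IP, Kcnd3 was acetylated along its whole length. In FC it fell below input in some bins, such as the 14th (0.525 RPKM against 0.551) and the last (0.614 against 0.660). In CON it was above input in every bin. It was above IgG-IP in 20 of 20 bins in both groups, with ratios from 0.29 to 1.53 in FC and from 0.27 to 1.63 in CON. Kcnd2 was above it in 20 of 20 bins in CON and in 16 of 20 in FC, with ratios from 0.18 to 0.71 in CON and from -0.36 to 0.53 in FC. Kcnip4 lay below the mock IP over most of its length, with 3 of 20 bins above IgG-IP in FC and 5 of 20 in CON, and ratios from -0.68 to 0.12 in FC and from -0.35 to 0.36 in CON.

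At the starts, within 1 kb on either side, Kcnip3 had 114 reads in FC H4K5ac-ChIP and 104 in CON H4K5ac-ChIP, against 7 and 12 in IgG-IP and 61 and 29 in input. The ratios over IgG-IP, 2.91 (1.82 to 4.25) and 1.99 (1.13 to 2.99), were above 0 in both groups. The first Kcnip2 start had 57 and 64 reads, with ratios of 1.91 (0.77 to 3.28) and 1.71 (0.69 to 2.90), and the first Kcnd3 start had 40 and 28, with 1.62 (0.37 to 3.15) and 2.10 (0.40 to 4.46). At Kcnd2 37 and 30 reads gave 2.09 (0.61 to 4.04) in FC and -0.12 (-1.06 to 0.88) in CON, with 4 and 15 reads in IgG-IP. Most of the gap between groups thus lay in the mock IP, as H4K5ac-ChIP itself was at 0.49 (-0.25 to 1.23) in FC over CON. Over input, with 44 and 13 reads, the order of the groups was reversed, at 0.28 in FC and 1.19 in CON. Of the Dpp6 starts, the first had only 26 and 16 reads, with ratios of -0.0037 (-1.04 to 1.12) and 0.07 (-1.29 to 1.59). The start of Dpp6-002 had 44 and 64, with ratios of 0.64 (-0.28 to 1.66) and 1.42 (0.48 to 2.49), so the FC interval included 0. The fourth, of the transcripts Dpp6-006 and Dpp6-007, had 73 and 65, with ratios of 1.07 (0.28 to 1.95) and 2.09 (0.97 to 3.46). Within Dpp6, the start with the most reads was thus an internal one.

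Promoters were taken as the 5 kb upstream of the first start. More than 50 H4K5ac-ChIP reads, a limit taken from the study's methods, were found at 6 of 8 promoters in FC and 7 of 8 in CON. As 65.0% and 68.1% of all genes had as many, the limit does not mark a high level in this count. With promoters of 2 kb it was passed by 2 of 8 in each group. A shorter region holds fewer reads at any gene, and the share of all genes at 2 kb is not given here. Dpp6 was under the limit in both groups and Dpp10 in FC. At least 2-fold more H4K5ac-ChIP than IgG-IP was found at 4 promoters, those of Kcnd2, Kcnd3, Kcnip2 and Kcnip3, in both groups. Of all genes, 30.4% reached it in FC and 24.6% in CON. With input as the control, Kcnd2 alone of these reached 2-fold in FC. There Kcnd3 had 0.810 RPKM against 0.565 in input, Kcnip2 1.063 against 0.670 and Kcnip3 1.088 against 0.626. In CON all of these but Kcnd3 (0.645 against 0.440) reached it over input. The share of all promoters past 2-fold over input is not given here, so these counts are not read as high or low.

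The Kcnd2 promoter held 130 reads in FC and 138 in CON, against 14 and 30 in IgG-IP. The Kcnip3 promoter held 172 and 191, against 29 and 30, and the Kcnip2 promoter 168 and 171, against 19 and 29. All 3 were far above their mock IP, in contrast with the Dpp6 promoter, which held 36 and 17 reads against 26 and 28. Its log2 ratio over IgG-IP was -0.65 (-1.42 to 0.14) for FC and -1.84 (-2.81 to -0.92) for CON. At Kcnd2 the promoter stood further above the mock IP than the gene body, with log2 ratios of 2.10 (1.30 to 3.01) and 0.18 in FC and 1.08 (0.50 to 1.70) and 0.42 in CON. The larger FC promoter ratio came with fewer IgG-IP reads, since the H4K5ac-ChIP density was 0.823 RPKM in FC and 0.767 in CON.

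Whether fear conditioning was accompanied by a different level of H4K5ac at these genes was examined by comparing FC with CON after scaling to library size. Over the gene body, 0 of 8 genes were at least 1.2-fold higher in FC and 0 of 8 at least 1.2-fold lower, where 16.9% and 7.77% of all genes were. With 1 library per group, no test was run. The median log2 ratio of the 8 genes was -0.0033, against 0.04 over all genes and -0.02 over genes of at least 100 kb.

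The lowest ratio of the 8 genes was at Kcnd2, with a log2 ratio of -0.23 (-0.28 to -0.19), and FC was lower than CON in 20 of 20 bins along the gene. Kcnip4 was at -0.19 (-0.22 to -0.16), also lower in 20 of 20 bins, and input was lower in FC in 20 of 20 bins at both genes. Kcnd3 was at -0.11 (-0.16 to -0.05). Kcnip2 (-0.0016) and Dpp6 (-0.0050) were level, while Kcnip1 was at 0.13 (0.07 to 0.19) and Kcnip3 at 0.15 (0.06 to 0.24). Scaled to library size alone, none of these 7 genes was thus past 1.2-fold, and the KChIP genes lay on both sides of 0. Input differed between groups by more than H4K5ac-ChIP at each of the 8 genes, by -0.59 at Kcnd2, -0.56 at Kcnip4 and -0.51 at Dpp10, the AT-rich genes, and by between 0.25 and 0.69 at the other 5. Less the input ratio, 3 of 8 genes were at least 1.2-fold higher in FC, Kcnd2 (0.36), Kcnip4 (0.36) and Dpp10 (0.73, or 0.36 without the reads at 1 position), against 13.7% of all genes. Another 3 were lower, Kcnd3 (-0.54), Kcnip2 (-0.69) and Kcnip3 (-0.38), against 48.6% of all genes, and Kcnip1 (-0.25) and Dpp6 (-0.26) were below 0. The count of 0 genes past 1.2-fold, and the direction at Kcnd2, Kcnip4, Kcnip1 and Kcnip3, thus rested on whether input was taken off. With the median of all genes set to 0, Kcnd2 alone was lower in FC. Less the median of genes in the same 1% step of GC content, Kcnd2 was at -0.10, Kcnip4 at -0.09 and Kcnd3 at -0.17. The IgG-IP libraries differed by between -0.16 and 0.01 at the 8 genes. The part of base composition in these differences was not tested.

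Dpp10 was the highest of the 8 genes in FC over CON, at 0.22 (0.18 to 0.26), through 2006 FC H4K5ac-ChIP reads that shared 1 position and strand. Without them the log2 ratio was -0.16 (-0.20 to -0.11), and with 1 read per position and strand in all libraries it was -0.15 (-0.20 to -0.10). Scaled to library size alone, the sign of the Dpp10 difference thus rested on that position, whereas less the input ratio it was above 0 with and without these reads.

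**Figure D3:**
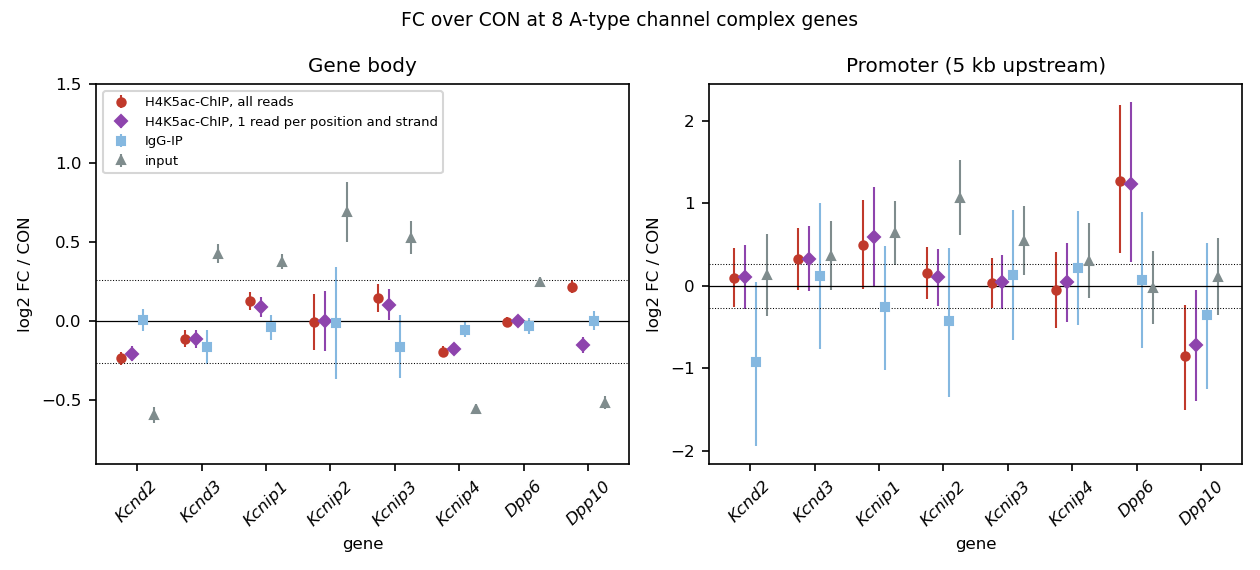
Log2 ratio of FC over CON at the gene body (left) and the promoter (right) of each gene, for H4K5ac-ChIP with all reads and with 1 read per position and strand, for IgG-IP and for input, with 95% intervals as bars (counting error only) and dotted lines at 1.2-fold. At the gene bodies H4K5ac-ChIP points lie within 1.2-fold while input points spread from -0.59 to 0.69, and Dpp10 changes sign between both ways of counting.

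At the promoters, 3 of 8 genes were at least 1.2-fold higher in FC (Kcnd3, Kcnip1 and Dpp6), against 23.2% of all genes, and 1 was lower (Dpp10), against 16.2%. At Dpp6 the log2 ratio was 1.27 (0.40 to 2.19) from 36 and 17 reads, and input was level there at -0.02. At Dpp10 it was -0.86 (-1.50 to -0.24) from 33 and 68 reads, with 0.11 in input. These were the promoters with the fewest reads in FC, whereas in CON Kcnip1 had fewer than Dpp10, and both were near or below IgG-IP. At Kcnip1 it was 0.50 (-0.04 to 1.04) from 67 and 54 reads and at Kcnd3 0.33 (-0.05 to 0.70) from 128 and 116, with intervals that include 0. Input was higher in FC at these promoters too, by 0.64 and 0.36, and with that taken off they were at -0.14 and -0.03. At the 4 other promoters the ratio ran from -0.04 at Kcnip4 to 0.16 at Kcnip2. Less the input ratio, Kcnip2 was at -0.90, Kcnip3 at -0.51, Kcnip4 at -0.35 and Kcnd2 at -0.03. Over the 8 promoters 1 was then higher, Dpp6, against 23.0% of all genes, and 4 were lower, against 42.3%.

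Marker genes of cell types were compared in the same way. Of the inhibitory neuron markers, 5 of 6 had enough reads, and 4 of these were at least 1.2-fold higher in FC over the gene body, where 16.9% of all genes were, with a median log2 ratio of 0.37 and a range from 0.17 to 1.03. The marker without enough reads over its body, Sst, was lower in FC within 2 kb of its start, at -0.86. Of 4 microglia markers, 3 were, with a median of 0.29 and a range from 0.08 to 0.30. Of 6 excitatory neuron markers 1 was (median 0.11), of 5 astrocyte markers 1 (median -0.02) and of 5 oligodendrocyte markers 2 (median 0.17). No marker of these 5 cell types was at least 1.2-fold lower over the gene body. Within 2 kb of the start, 4 of 6 inhibitory, 4 of 5 astrocyte, 2 of 4 microglia and 2 of 6 excitatory markers were higher. Of 5 oligodendrocyte markers 0 were, and 1 inhibitory and 1 astrocyte marker were lower. The share of all genes there is not given, and input was not taken off for any marker. The part of the mix of cell types in the differences at the 8 genes was not tested. Among the relatives, 3 of 16 other potassium channel genes were higher in FC and 1 lower, 1 of 6 dipeptidyl peptidase relatives was higher and 2 lower, and 1 of 7 calcium sensor relatives was higher and 0 lower, against the same 16.9% of all genes higher and 7.77% lower.

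Within the gene bodies, 1-kb windows with at least 30 H4K5ac-ChIP reads in both groups together were compared. Of 1960 such windows, 40 were at least 2-fold higher in FC and 100 at least 2-fold lower, that is 2.04% and 5.10%. Over the genome the shares were 2.98% and 3.66%. Kcnip4 had 10 windows higher and 36 lower of 444, Dpp6 13 and 24 of 605, Kcnd2 4 and 23 of 347, Kcnd3 2 and 9 of 209, and Dpp10 6 and 8 of 141. Kcnip1 had 4 higher and 0 lower of 130, Kcnip3 1 and 0 of 63, and Kcnip2 0 of 21 in either direction. Shares are not compared between genes, and the pooled shares are not read as an excess or a shortfall against the genome. Both groups together had only 25.9 reads per kb in Kcnip4, 26.7 in Kcnip1 and, without the stack described next, 21.3 in Dpp10. A window there could therefore reach 30 reads through 1 high library, and Kcnip4 alone gave 36 of the 100 lower windows. Windows of 300 bp with at least 20 reads gave 147 higher and 125 lower of 1425, but the share over the genome was not counted at that size. Such a window could also reach 20 reads through 1 high library, so these counts do not show whether lower windows were in excess. With 1 read per position and strand, 18 windows were higher and 59 lower of 1580, where 1.71% and 2.26% were over the genome. The same limit applies to these counts.

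The largest differences of single windows came from stacks of reads that start at 1 position. In Dpp10, the window at 526 to 527 kb from the start held 2025 reads in FC H4K5ac-ChIP and 24 in CON H4K5ac-ChIP, against 6 and 12 in IgG-IP and 18 and 24 in input. Of the FC reads, 2006 shared the 5′ end at position 125415917 on the minus strand, with 25 to 36 aligned bases and a median score of 14, against 68 over all reads of the gene in that library. They left 13 distinct positions in the FC window and 22 in the CON window. In Dpp6, the window at 232 to 233 kb held 22 reads in FC and 188 in CON H4K5ac-ChIP, of which 159 shared position 27376786 on the plus strand, with 26 to 28 aligned bases and a median score of 11.
The reference bases under the longest read of each stack are shown, since these positions set the largest differences. They lie at chr1:125415882-125415917 (minus strand) and chr5:27376786-27376813 (plus strand) of mm9, both in introns, with no annotated exon of any gene over them, and neither holds a CG dinucleotide.
Dpp10 stack: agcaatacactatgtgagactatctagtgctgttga
Dpp6 stack: gatgaccctcctctcctctccactctgc

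The part covered by all reads of a stack, 25 bases in Dpp10 and 26 in Dpp6, had 1 exact match in the genome, the position itself. Positions with at least 100 reads on a strand were found 275 times in FC H4K5ac-ChIP and 326 times in CON H4K5ac-ChIP, holding 0.450% and 0.466% of the reads. No other position of the 8 genes held more than 22 reads in any of the 6 libraries. The stack in Dpp6 lies 1.05 kb past the start of Dpp6-002 and did not enter the reads counted within 1 kb of that start.

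**Figure D4:**
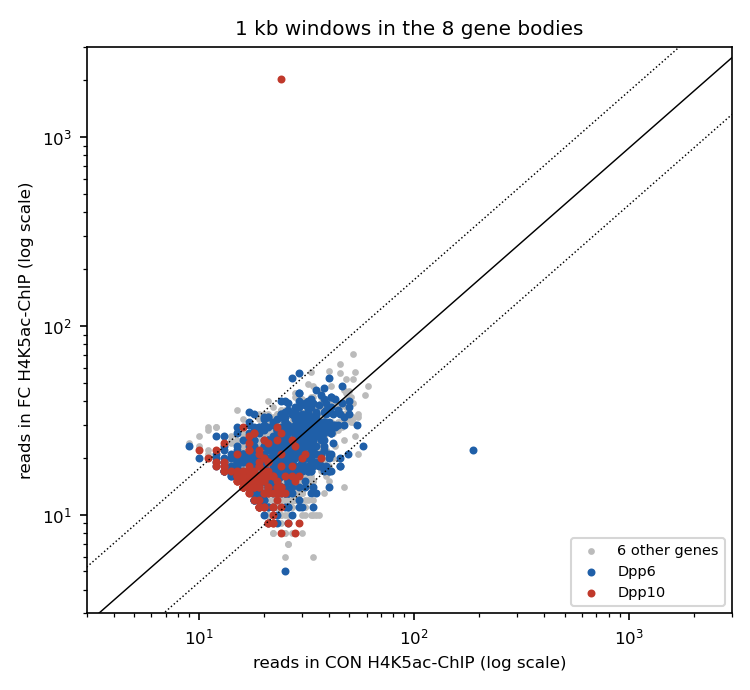
Reads in FC against CON H4K5ac-ChIP in each of 1960 windows of 1 kb in the 8 gene bodies, both axes on a log scale, with a solid line at equal depth-scaled density and dotted lines at 2-fold. The red point with 2025 reads in FC and 24 in CON (Dpp10) and the blue point with 22 and 188 (Dpp6) stand apart from all other windows.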

How the data were processed

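The authors deposited 1 list of aligned reads for each of 6 libraries, with a mapping quality score for each read. Per the study's methods, SOLiD reads were mapped with Bioscope to mm9, the build that the submitters' processing notes also name, and reads mapping to several places could be kept. Here, reads overlapping a gene body, promoter or window by at least 1 bp were counted over the GENCODE annotation of mm9 and scaled by the library's total (pandas 2.3.3, SciPy 1.17.1 and NumPy 2.4.6 under Python 3.11.15). Repeated reads, 11.5% to 17.8% of a library, were kept. Ratios have exact binomial intervals and densities exact Poisson intervals at 95%. PCR copies are not independent molecules, so intervals cover counting error only. With 1 library per group no gene was tested, and genes were read against the share of all genes past the same fold. The study cross-linked 3 hippocampal samples per group one by one, and how they map to the 6 libraries is not given in the sources used here.

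All 8 members are named. From lists of related genes only the highest and the lowest may be named, and the likeness rule takes the 3 protein-coding genes of at least 100 kb nearest to Kcnd2. The members and lists were chosen with earlier results of these data known. The counting was tested on simulated data. Alternatives changed the reads kept, the control, the scaling, the correction for GC content, the promoter, the windows and the flanks. Comparisons around internal starts and without stacks were added after the profiles were seen.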

Additional observations from a re-analysis of the deposited data

Results flagged for a closer look

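The promoters of 3 genes had H4K5ac-ChIP above IgG-IP in one group and below it in the other. With 1 library per group the difference between groups was not tested. At Kcnip1 the log2 ratio was 0.14 (-0.52 to 0.83) for FC and -0.62 (-1.24 to 0.02) for CON. At Kcnip4 it was -0.14 (-0.72 to 0.46) for FC and 0.13 (-0.44 to 0.72) for CON. At Dpp10 it was -0.40 (-1.24 to 0.48) for FC and 0.10 (-0.54 to 0.78) for CON. All 6 intervals include 0.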

How the results depend on the processing

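No paired analysis was possible because each group had 1 library per antibody, and no library could be left out for the same reason. Of 104 values recomputed for the counts and medians of the 8 genes, 79 stayed within 1.5 times or within the counting interval, 23 moved further and 2 changed sign. With 1 read per position and strand the median log2 ratio of FC over CON was -0.053, and 18 windows were higher and 59 lower. With mapping scores of at least 20 that median was -0.059, and 1 gene (Kcnip3) reached 2-fold over IgG-IP in CON. With the median of all genes set to 0, the medians over IgG-IP were -0.40 in FC and -0.19 in CON, by construction since the 8 genes lie below the median of all genes, with 0 genes past 2-fold in FC and 1 gene (Kcnd2) lower in FC. Input as the control left 0 genes past 2-fold in FC. Less the input ratio, 3 gene bodies were higher in FC and 3 lower (median -0.25), as were 1 promoter and 4 promoters, and those of Kcnd3 (-0.034) and Kcnip1 (-0.14) changed sign. Less the IgG-IP ratio, 1 gene body (Kcnip3) was higher. The promoters of Kcnd2, Kcnip1, Kcnip2 and Dpp6 were then higher and 2 promoters (Kcnip4, narrowly, and Dpp10) were lower. These promoters held only 14 to 38 IgG-IP reads. No share of all genes is given for this correction, so its counts are not read as a result about the 8 genes. Less the GC median, 1 gene body (Dpp10) was higher and the median was -0.053, and with 1 read per position and strand besides, chosen after seeing the data, it was -0.058 with 0 genes past 1.2-fold. A promoter of 2 kb left 2 genes with more than 50 reads in each group, where the share of all genes is not given. Windows of 300 bp gave 147 higher and 125 lower of 1425, and windows of 5 kb 1 higher and 1 lower of 358, against 40 and 100 of 1960 at 1 kb. The cause was not tested where the construction does not give it. Promoters with 17 to 68 reads allow only wide intervals.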
